A study of Danio rerio with 12 samples.

Results

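A group of 12 miRNAs whose names are known mainly from fish was examined in regenerating zebrafish caudal fins. They were chosen by name alone, as miR-462, miR-1388, miR-722 to miR-740 and miR-2184 to miR-2200, which gave 12 of the 148 rows of the small RNA table. The samples came from adult Ekkwill zebrafish whose caudal fins were collected uninjured (0 days post-amputation, 0 dpa) or 4 dpa, after removal of part of the fin. Each day had 3 small RNA libraries and 3 mRNA libraries, and each library was made from a pool of fins. The labels name no allele, and no agent or treatment other than the amputation.

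A miRNA is a short RNA that pairs with messenger RNAs, mainly through its seed, bases 2 to 8 counted from the 5′ end, and lowers their stability or translation. miR-462 and miR-731 lie beside each other in teleost genomes and are regarded as the fish counterparts of the miR-191 and miR-425 pair of tetrapods. In zebrafish embryos this pair is known to be induced by low oxygen, and in fish cells by interferon and viral infection. In zebrafish neutrophils, overexpressed miR-722 is known to lower rac2, a small GTPase needed for neutrophil movement.

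The mature sequences of the pair and of the miRNAs that changed are shown with the seed in capitals, because they show what the tags counted below are and which families they join. They were taken from the sequence list that accompanies the study.
miR-462-5p: tAACGGAAcccataatgcagctg
miR-731-5p: aATGACACgttttctcccggatcg
miR-2184-1-5p: aACAGTAAgagtttatgtgctg
miR-725-3p: tTCAGTCAttgtttctagtagt
miR-722-2-3p: tTTTGCAGaaacgtttcagatt
The 12 miRNAs carried 12 distinct seeds, so no 2 of them belonged to one seed family. The seeds of miR-462-5p and miR-731-5p each matched an axolotl miRNA of another name in the same list, which is shown for comparison.
axolotl miR-191-5p: cAACGGAAtcccaaaagcagctg
axolotl miR-425-5p: aATGACACgatcactcccgttgagc
Aligned from the 5′ end, miR-462-5p and axolotl miR-191-5p differed at 5 bases, and miR-731-5p and axolotl miR-425-5p at 8. The 8 include the unpaired last base of axolotl miR-425-5p, the longer sequence.

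Of the 12 names, 7 were also listed for bichir, a basal ray-finned fish, 3 for axolotl and 5 for neither. The seed was the same in every listed bichir or axolotl counterpart. miR-462-5p was identical in bichir along its whole length, and so was miR-737-5p. miR-2184-1-5p differed at 1 base in bichir and at 1 base in axolotl, whereas miR-725-3p differed at 2 and 4 bases. The miR-2184 counterparts are printed because this miRNA fell the most.
bichir miR-2184-5p: aACAGTAAgagtttatgtgttg
axolotl miR-2184-5p: aACAGTAAgagttaatgtgctg
Base composition varied widely, from 19.0% G and C in miR-737-5p to 73.9% in miR-738-3p.

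In the Zv9 assembly, miR-462 lay at chr8:26935199-26935338 and miR-731 at chr8:26935431-26935570, both on the plus strand, with their starts 232 bases apart. miR-2184 had loci at chr10:36859438-36859577 and chr10:36675695-36675834 on the minus strand, and 3 of the 12 miRNAs had more than 1 locus. Where several loci give the same mature sequence, the tags cannot be assigned to one of them. miR-725 lay at chr22:23643651-23643790 on the plus strand. In the RefSeq annotation, whose assembly differs from Zv9 and was used for names only, neither miR-462 nor miR-731 overlapped a gene, and the nearest coding gene of both was dalrd3. The same annotation placed miR-722 within gcgrb, miR-724 within cpne5b and miR-737 within ap2m1b. For miR-722 and miR-724 the study also lists a locus on another chromosome, so their tags cannot be placed in gcgrb or cpne5b alone. The annotation listed miR-735 as a synonym of rny2, a Y RNA gene, and a miR-738 on chromosome 7 as overlapping a ribosomal RNA gene. The study places miR-738 on chromosome 4, so this overlap cannot be carried over to the locus counted here. The mature sequences of both are shown because the annotation names other RNAs under or beside these names.
miR-735-3p: gGCTGGTCcgaaggcggtgggttag
miR-738-3p: aGCTACGGcccgcgtcgggacct
The study left miR-722, miR-735 and miR-740 out of its own analysis because the places they mapped to did not match their miRBase records. They are rows of the deposited table and are kept here, but the identity of the tags counted under those names is uncertain, including for miR-722-2-3p among the miRNAs that fell.

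The libraries held between 375909 and 1043299 tags at 0 dpa and between 741804 and 964516 at 4 dpa. miR-21 made up 10.7% ± 1.95 of the tags at 0 dpa and 66.9% ± 3.72 at 4 dpa (SD, n = 3), and 104 of the 148 rows were called lower when scaled to all tags. Levels were therefore scaled by the trimmed mean of log2 ratios between libraries, and are given as log2(scaled tags + 1). Without scaling the median row fell by 1.09 on the log2 scale, against −0.05 after it. In such bulk tissue, fewer cells of a type and less RNA per cell cannot be told apart.

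The levels of the 12 miRNAs spanned a wide range. Means over the 6 libraries were 100 or more tags for 5 of them and under 100 for 7, of which 2 had under 10. miR-462-5p held most of the tags, 80.2% ± 4.45 of the tags of the 12 miRNAs at 0 dpa and 84.1% ± 0.354 at 4 dpa (SD, n = 3). It was the most abundant of all 148 rows in every 0 dpa library and ranked 3 in every 4 dpa library.

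**Figure D1:**
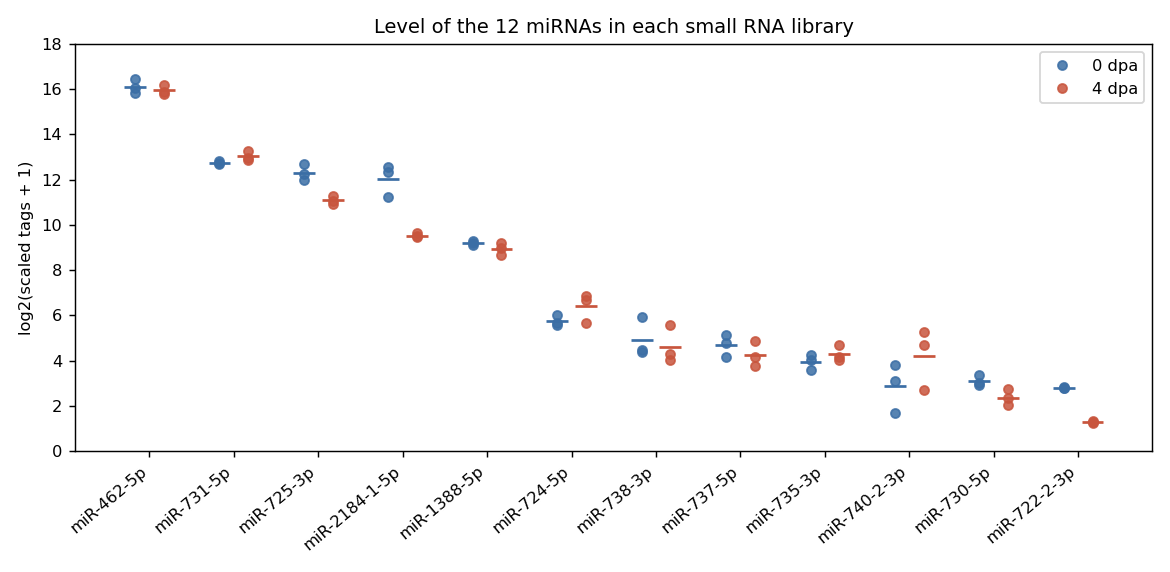
Level of each of the 12 miRNAs in each small RNA library, as log2(scaled tags + 1); points are libraries (0 dpa and 4 dpa, 3 each) and lines are the mean of the day. miR-2184-1-5p, miR-725-3p and miR-722-2-3p were lower in every 4 dpa library than in any 0 dpa library, whereas the levels of miR-462-5p overlapped.

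Of the 12 miRNAs, 3 were downregulated at 4 dpa and none was upregulated, at an adjusted p under 0.05 (limma, Benjamini-Hochberg over 148 rows). Over all rows 40.5% were called, 19.6% lower and 20.9% higher. The 3 of 12 called are thus no larger a share than that of calls in either direction. Counted as falls only, they are a share near to, and slightly above, the 19.6% of all rows. The same 3 and no others of the 12 had an unadjusted p under 0.05, and limma-voom also called 3 lower and none higher. The median log2 fold-change was −0.29 over the 12 miRNAs and −0.05 over all rows. The levels of the days did not overlap for 5 of the 12, where 54.1% of all rows did not overlap.

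miR-2184-1-5p fell the most of the 12. Its tags numbered 3294, 12668 and 5119 in the 0 dpa libraries and 571, 509 and 473 in the 4 dpa libraries. After scaling, the lowest 0 dpa library held 2410 tags and the highest 4 dpa library 797. The log2 fold-change was −2.50 (standard error 0.33, adjusted p 0.00092 in limma), which ranked 2 among the falls of all 148 rows. The first 0 dpa library was the lowest of its day, and without it the log2 fold-change was −2.93. Without the third 0 dpa library, the highest after scaling, it was −2.24, the smallest fall with 1 library left out.

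miR-725-3p, the other abundant miRNA that fell, had 6687, 16323 and 3489 tags in the uninjured fins and 1546, 1404 and 1609 in the regenerates. Scaled, these were 4893, 6579 and 4055 against 2157, 1925 and 2453 tags, with a gap between the days. The log2 fold-change was −1.23 (standard error 0.20, adjusted p 0.0025 in limma). Its rank by tags was between 14 and 20 at 0 dpa and between 23 and 27 at 4 dpa.

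miR-722-2-3p, whose known target in neutrophils is rac2, was scarce, and it is among the names the study left out. It had 8, 15 and 5 tags at 0 dpa and an entry of 0, which stands for 0 or 1 tag, in each 4 dpa library. Its mean at 0 dpa was 1.38-fold a floor of 3 tags per 4 dpa library. That floor suits an entry of 0 tags, and 1 tag would call for a higher floor. The counting error of the 0 dpa tags was also not included, so this is not a strict lower bound. limma gave an adjusted p of 0.0060, but its fitted log2 fold-change of −1.51 (SE 0.31) depends on the pseudocount and on how entries of 0 are read. The log2 fold-change was −0.76 with 5 tags added and −1.73 with 0.5 added. With entries of 0 read as 0 tags it was −2.79.

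The tags of miR-462-5p numbered 92752, 145559 and 76643 before amputation and 53054, 40796 and 40039 in the regenerates. Scaled, these were 67864, 58670 and 89071 against 74034, 55944 and 61048 tags, and the days overlapped. Its log2 fold-change was −0.16 (standard error 0.19, adjusted p 0.55 in limma), but scaled to all tags it was −1.61 and was called (adjusted p 0.00038). Its share of all tags was 15.5%, 14.0% and 20.4% at 0 dpa and 6.84%, 4.23% and 5.40% at 4 dpa. Among tags other than miR-21 the share was 18.6% ± 3.43 at 0 dpa and 16.4% ± 2.29 at 4 dpa (SD, n = 3), a difference of −2.15 percentage points with an exact two-sided permutation p of 0.6. Leaving out 1 library moved it widely, to −0.27 without the third 0 dpa library, −3.62 without the second, −3.44 without the first 4 dpa library and −1.25 without the second. The separation of the days in the first share was thus not seen in the second.

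miR-731-5p, the neighbour of miR-462, had 9837, 17072 and 5625 tags in uninjured fins and 7066, 5372 and 5216 in regenerates. Its scaled tags were 7197, 6881 and 6537 against 9860, 7367 and 7953, so every 4 dpa library was above every 0 dpa library. The log2 fold-change of 0.28 (SE 0.15) did not pass the test (limma adjusted p 0.17), and it turned to −0.75 without scaling and to −1.17 when scaled to all tags. The log2 ratio of miR-462-5p to miR-731-5p was 3.24, 3.09 and 3.77 in uninjured fins and 2.91, 2.92 and 2.94 in regenerates. The ratio was lower in each 4 dpa library, by 0.44 on average, and the exact two-sided permutation p of 0.1 is the smallest that 3 against 3 libraries allow. Without the third 0 dpa library, the highest, the difference was −0.24.

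**Figure D2:**
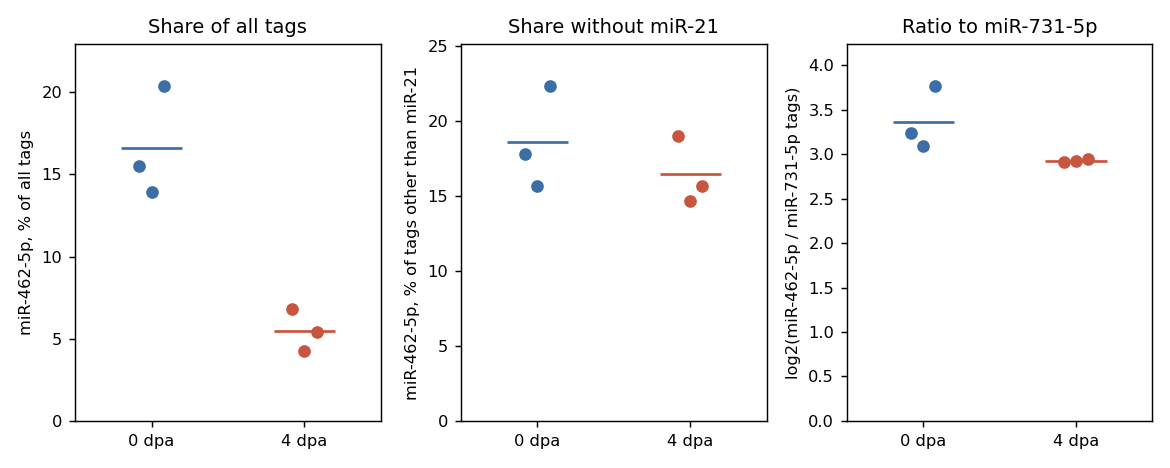
miR-462-5p in each small RNA library as a percentage of all tags, as a percentage of tags other than miR-21, and as the log2 ratio of its tags to those of miR-731-5p; points are libraries (3 per day) and lines are means. The days separate in the plots of all tags and of the ratio, and overlap in the plot without miR-21, where the means are 18.6% and 16.4%.

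The remaining miRNAs did not pass the test. miR-1388-5p, of moderate level, had 844, 1371 and 512 tags in uninjured fins and 414, 292 and 326 in regenerates, for a log2 fold-change of −0.27 (standard error 0.18, adjusted p 0.26 in limma). miR-724-5p had 67, 158 and 40 tags in uninjured fins and 36, 84 and 67 in regenerates. Its log2 fold-change of 0.67 (standard error 0.35, adjusted p 0.16 in limma) rose to 1.05 with an adjusted p of 0.023 without the first 4 dpa library, and turned to −0.35 without scaling. For both, the scaled levels of the days overlapped.

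The other 5 were of low level. miR-730-5p had 9, 23 and 6 tags in uninjured fins and 4, 3 and 2 in regenerates, and its scaled levels did not overlap. Its log2 fold-change was −0.73 (standard error 0.33, adjusted p 0.12 in limma), and the ratio of days, with the tags of the libraries of a day summed (38 at 0 dpa and 9 at 4 dpa) and divided by the sum of their library factors, was 0.531 with an exact 95% interval from 0.226 to 1.12 that covers counting error only. The days of the other 4 overlapped. miR-737-5p had 23, 84 and 23 tags in uninjured fins and 20, 9 and 11 in regenerates, and changed by −0.44 on the log2 scale (standard error 0.39, adjusted p 0.42 in limma). miR-738-3p had 27, 149 and 18 against 33, 11 and 12 tags, and its change of −0.31 (standard error 0.56, adjusted p 0.71 in limma) became 0.19 without the second 0 dpa library, the highest by far. miR-735-3p had 15, 45 and 13 against 12, 18 and 10 tags, a change of 0.33 (standard error 0.31, adjusted p 0.44 in limma) that turned to −0.67 without scaling. In each of these 3 the SD between libraries of a day exceeded the difference. miR-740-2-3p varied the most, with 3, 19 and 11 against 27, 4 and 16 tags and a change of 1.35 (standard error 0.78, adjusted p 0.20 in limma). Leaving out 1 library moved this change between 0.73 (without the first 0 dpa library) and 2.12 (without the second 4 dpa library, adjusted p 0.054 in limma), with 0.84 without the first 4 dpa library, and it was 0.085 when scaled to all tags. At these few tags and with 3 libraries per day, no difference was detected for these 5 with the chosen scaling.

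**Figure D3:**
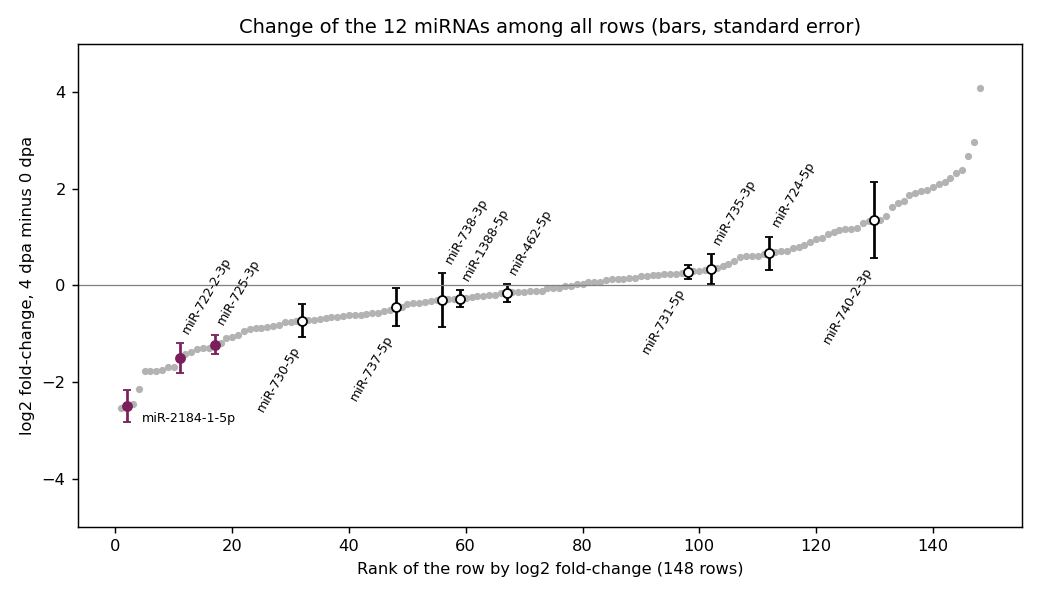
log2 fold-change (4 dpa minus 0 dpa, y axis) of the 148 small RNA rows by rank (x axis), with the 12 miRNAs named and their standard error as bars; filled points passed an adjusted p under 0.05 and open points did not. miR-2184-1-5p at −2.50 ranks 2 from the low end, and miR-462-5p at −0.16 lies in the middle of the rows.

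The rows whose profile over the 6 libraries was most like each of 3 of these miRNAs were found by the root mean square difference of centred levels among 104 rows. For miR-2184-1-5p they were miR-101b-3p, miR-338-1-3p and miR-26b-5p, at differences of 0.233, 0.261 and 0.380. For miR-731-5p they were miR-146a-5p, miR-125c-5p and miR-196a-1-5p, and for miR-462-5p miR-100-1-5p, miR-1388-5p and miR-20a-2-5p. miR-731-5p ranked 16 in likeness to its neighbour miR-462-5p. A miR-132 and a miR-212 locus lie on the opposite strand, 9210 and 9535 bases from one miR-2184 locus by their starts. The rows miR-132-1-3p and miR-212-5p, named here because of those loci, rose, with log2 fold-changes of 1.88 (SE 0.31) and 1.76 (SE 0.48) and limma adjusted p of 0.0025 and 0.021. The miR-212-5p sequence is also listed for a locus on another chromosome, so its tags cannot be placed beside miR-2184. The name miR-132-1 belongs to a locus on another chromosome, although the sequence of that row is the one listed for the neighbouring miR-132 locus.

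The mRNA libraries were read for genes reported elsewhere as targets of these miRNAs, with CPM, the library-scaled read count, taken back from the deposited log2(CPM + 1). The log2 fold-changes of genes are differences of log2(CPM + 1), which makes those of genes of low CPM smaller. Of 16951 genes tested with limma, 62.1% were called, 31.0% higher and 31.2% lower. rac2 stood at 186, 200 and 201 CPM in uninjured fins and 131, 145 and 132 CPM in regenerates, for a log2 fold-change of −0.51 (standard error 0.08, adjusted p 0.00081 in limma). Both rac2 and miR-722-2-3p were thus lower at 4 dpa. rac2 is used by leukocytes, and 5 of 7 leukocyte marker genes were lower too. The summed level of the 7 went from between 539 and 835 CPM to between 318 and 397, with no marker at 0. Several of the 7 share the name MPEG1, with log2 fold-changes of −3.82 (called), −1.20 (not called) and −0.08 (not called). lyz was near the floor at 4 dpa, at a mean of 0.29 CPM. The part of the leukocyte marker change in the rac2 value was not tested.

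DDX5, an RNA helicase, is among the genes reported as targets within the miR-462 and miR-731 pair in zebrafish. Which miRNA of the pair was reported for which gene is not given here. DDX5 stood at 590, 829 and 779 CPM in uninjured fins and 974, 938 and 1028 CPM in regenerates. It rose by 0.45 on the log2 scale (standard error 0.13, adjusted p 0.015 in limma), a call lost without the third 4 dpa library (adjusted p 0.053). A pair of genes carried the name PPM1D, a phosphatase of the p53 pathway, and the files do not say which is ppm1da, the reported target. ENSDARG00000009273 rose (log2 fold-change 0.62, standard error 0.16, adjusted p 0.0089 in limma), whereas ENSDARG00000021380 did not pass the test (−0.25, standard error 0.17, adjusted p 0.24 in limma), although without the second 0 dpa library it was lower (−0.43, adjusted p 0.036).

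**Figure D4:**
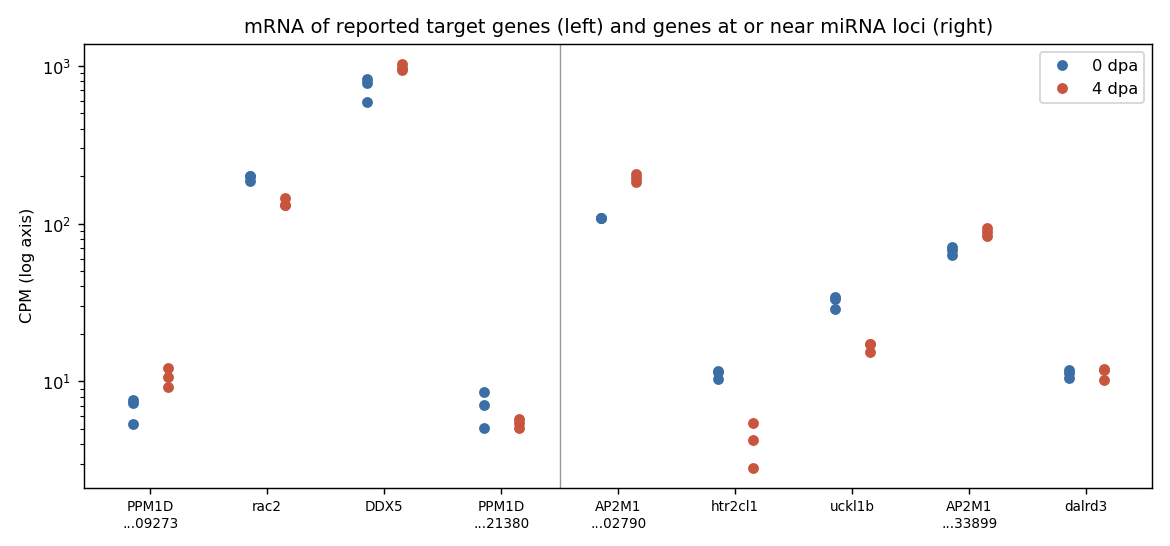
CPM on a log axis in each mRNA library, with reported target genes left of the line. Right of the line are genes at or nearest to the miRNA loci, where matched by name. Points are libraries, 3 per day, and the last digits of the gene identifier separate genes of the same symbol. rac2 is lower and DDX5 higher in every 4 dpa library, and the days of dalrd3 overlap.

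Genes at or nearest to the loci were read by position, outside the rule for named genes, and 5 entries were matched by name. gcgrb, cpne5b, mybpc2b (at miR-735) and ccdc50a (nearest to miR-725) were not matched. None of the genes below was thus placed at a miRNA that was called. dalrd3, nearest to miR-462 and miR-731, stood at 11.3, 11.7 and 10.5 CPM in uninjured fins and 10.3, 12.0 and 11.7 CPM in regenerates, with a log2 fold-change of 0.04 (standard error 0.11, adjusted p 0.78 in limma). uckl1b, a uridine-cytidine kinase-like gene nearest to miR-1388, fell by 0.90 on the log2 scale (SE 0.10). htr2cl1, nearest to miR-730, fell by 1.25 (SE 0.18). The 2 genes named AP2M1, one of which may be the ap2m1b that holds miR-737, rose by 0.86 and 0.41.

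Genes that make or use miRNAs, and genes of the responses in which the miR-462 and miR-731 pair is known, were taken as lists. Of 10 miRNA processing genes measured, 5 rose and 2 fell, or 7 called where 62.1% of all genes were. Without the third 4 dpa library 3 rose and 2 fell, and PRKRA and DICER1 were no longer called. AGO3, an Argonaute that holds miRNAs, rose by a log2 fold-change of 1.25 (SE 0.27), DROSHA, the nuclear cleaving enzyme, by 0.74 (SE 0.14), and TNRC6C, a silencing partner of the Argonautes, fell by 0.76 (SE 0.12). AGO2 fell by 0.50 (SE 0.10) and ago3a rose by 0.52 (SE 0.13). At means of 0.63 CPM at 0 dpa and 1.31 CPM at 4 dpa, the change of ago3a was made smaller by the added 1. The median log2 fold-change of the list was 0.26, against −0.0049 over all genes.

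Of 15 hypoxia response genes measured, 5 rose and 6 fell, beside 31.0% higher and 31.2% lower over all genes, and the median was −0.17. PFKFB4, a regulator of glycolysis, rose by a log2 fold-change of 1.20 (SE 0.17) and HIF1A, an oxygen-sensitive transcription factor, rose by 0.90 (SE 0.12). EPAS1, a related factor, fell by 2.74 (SE 0.18), and EGLN3, an oxygen sensor that marks such factors for breakdown, fell by 1.04 (SE 0.13). NDRG1 rose by 0.76 (SE 0.14) and BNIP3L fell by 0.68 (SE 0.15). Genes of the same or a related name differed from these. pfkfb4a was lower (−0.60, SE 0.15, limma adjusted p 0.0092), unlike PFKFB4. hif1aa (0.05, SE 0.25, limma adjusted p 0.88) and another BNIP3L gene, ENSDARG00000028067 (−0.20, SE 0.08, limma adjusted p 0.064), did not pass the test. Members of this list thus moved in both directions.

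Of 21 interferon response genes measured, 7 fell and none rose (none at an unadjusted p under 0.05 either, in limma), and the median was −0.24. Over all genes 31.2% were lower and 62.1% called, so the 7 lower are a share near the background and fewer of the list were called than of all genes. irf1a, an interferon regulatory factor, fell by 1.1 on the log2 scale (SE 0.39). RSAD2, an antiviral enzyme, fell by 0.99 (SE 0.30). The call of irf1a was lost without any one of replicates 1 and 3 of either day, and that of RSAD2 without 0 dpa replicate 3, 4 dpa replicate 1 or 4 dpa replicate 3, with adjusted p up to 0.13 and 0.063. Of the 7 leukocyte markers, 5 were lower, and any relation of these markers to the values of this list was not tested. As to the labelled tissue, 2 of 3 epidermis markers were lower and 3 of 4 osteoblast markers higher, and none was at 0. Over all genes 31.2% were lower and 31.0% higher. The summed level of the epidermis markers was between 43004 and 50340 CPM at 0 dpa and between 26626 and 32373 CPM at 4 dpa. That of the osteoblast markers was between 220 and 311 CPM at 0 dpa and between 6076 and 6817 CPM at 4 dpa. A single gene made up most of each sum. krt5 had a mean of 37481 CPM at 0 dpa and 23499 CPM at 4 dpa, and COL10A1 194 and 6223 CPM. The epidermis marker TP63 (log2 fold-change 0.19, limma adjusted p 0.31) and the osteoblast marker runx2b (limma adjusted p 0.10) did not pass the test.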

How the data were processed

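Small RNA (20- to 25-base tags) and polyA+ mRNA libraries of 3 pools of fins per day were sequenced by the authors. For the small RNA, the authors clipped and collapsed reads with the FASTX Toolkit and annotated tags with miRMiner against miRBase and Zv9. The deposited small RNA values are log2 of the tag count, with no library scaling: 2 to the power of each of the 888 values was whole within 0.01. For entries above 0, the raw counts listed with the study equal these numbers. An entry of 0 stands for 0 or 1 tag and was read as 1 (21 values). The deposited mRNA values are log2(CPM + 1) by the authors. The submitters' processing notes name Trimmomatic, RSEM, edgeR and Zv9, with no versions.

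Tags were divided by a library factor (trimmed mean of log2 ratios, 30% of ratios and 5% of levels trimmed at each end, rows of mean log2 level 5 or more), 1 was added, and log2 levels were fitted with limma 3.58.1 in R 4.3.3 (trended variance, Benjamini-Hochberg over 148 rows, threshold 0.05). mRNA levels were shifted in the same way and fitted over 16951 genes. Ratios and shares were compared by exact two-sided permutation in Python 3.11.15. The 3 libraries per day measure the spread between pools. Both fits were also run on simulated data, with outcomes not given here. The simulated small RNA rows all had the same spread beyond counting error, unlike the rows of the real libraries. Intervals and floors (3 tags) cover counting error only. Sequences and Zv9 positions came from the study's list, and gene names from Ensembl and RefSeq tables.

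The miRNAs, lists and tests were chosen with earlier results of these data known. Every one of the 12 miRNAs is named. Named with them are the 3 rows most like miR-462-5p, miR-731-5p and miR-2184-1-5p among those of mean level 6 or more, miR-21, every reported target matched, and the 3 largest called rises and falls of each list. One gene that this rule names in the interferon list is not reported here. Genes beside the loci were added by position, only where the RefSeq chromosome was one the study lists. Other entries of named hypoxia genes, and some marker genes, were added to show how far they differ. Alternatives changed the scaling, pseudocount, filters, tool and libraries; reading entries of 0 as 0 tags was chosen after seeing the data.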

Additional observations from a re-analysis of the deposited data

How the results depend on the processing

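miR-2184-1-5p and miR-725-3p were called under all 17 alternatives, and miR-722-2-3p under the 16 that kept it (adjusted p from 0.00036 to 0.049); the filter of a mean of 10 tags left out miR-722-2-3p and miR-730-5p. Scaling to all tags, of which miR-21 takes most at 4 dpa, called 112 rows and 10 of the 12 miRNAs, all 10 lower, where the chosen scaling called 60 (31 higher and 29 lower) and 3. With no scaling 3 rows were higher and 46 lower. miR-731-5p, miR-724-5p and miR-735-3p changed direction: with no scaling they were at −0.75, −0.35 and −0.67, and scaled to all tags at −1.17, −0.76 and −1.03. The share of miR-462-5p differed by −11.1 percentage points over all tags (exact permutation p 0.1). Leaving out 1 library gave 51 to 73 called rows and 3 to 4 called miRNAs of the 12. Over these, miR-738-3p ranged from −0.77 to 0.19 (without the second 0 dpa library), miR-462-5p from −0.30 to 0.0092 (without the third 0 dpa library) and dalrd3 from −0.0051 to 0.10; the interferon list had 5 to 10 calls, with at most 1 of them higher. A mean of few tags limits 7 of the 12 miRNAs. Whether replicate numbers pair the samples cannot be settled by 3 correlations per kind of library. Deviations of same-numbered small RNA libraries correlated at −0.54, 0.36 and −0.04, and only replicate 2 correlated best with its own number. Those of same-numbered mRNA libraries correlated at 0.15, −0.0044 and 0.15, and replicates 1 and 3 correlated best with their own number. With the replicate block 53 rows, the same count of 3 of the 12 miRNAs and 10486 genes were called, against 10530 genes without it.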
